A study of Mus musculus with 6 samples.

Results

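The genes described here are 41 genes of skeletal muscle cells, read in preparations of FAPs (fibro/adipogenic progenitors), a stromal cell population that lies between muscle fibres. They were listed by name, from muscle stem cell regulators to proteins of the mature fibre, and 1 probe set with exactly 1 gene symbol was found for each of the 41, out of 19938 genes named on the array. The arrays hold FAPs of male C57Bl/6 mice aged 8 to 12 weeks, taken from hindlimb muscle in which the tibialis anterior had received 30 µL of 50% glycerol, a chemical injury that destroys fibres and is followed by their regeneration. A vivo-morpholino (VMO), an antisense oligomer carrying a group that helps it enter cells in the animal, followed on day 3 of the injury, with isolation of the cells 2 days later. The groups were pA-VMO, 5'ss-VMO and control VMO, with 2 arrays each, and all shared the injury, the sex and the strain. The study concerns intronic polyadenylation of the transcript of Pdgfra, the receptor gene that marks FAPs. As known of the study, the pA-VMOs were made to block an intronic polyadenylation signal of that transcript and the 5'ss-VMO to block the 5' splice site of the intron. The labels give only the names. Each array held RNA from cells pooled over 4 mice, so mice cannot be told apart within an array. The labels do not say how the FAPs were separated from other cells.

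Muscle regenerates from satellite cells, stem cells that express Pax7. After injury they divide as myoblasts under Myf5 and Myod1, then switch on Myog, fuse with the help of Mymk, and first build embryonic forms of the contractile proteins before the adult fast and slow forms replace them. FAPs belong to another lineage and support this path with secreted signals. Markers of the labelled cell type were read first, and their levels cannot show how pure the preparations were. On all 6 arrays, 10 measured FAP markers lay between 7.12 and 13.18 on the log2 scale, with Pdgfra between 11.24 and 11.37. The 38 muscle genes that passed a filter on low levels lay between 5.05 and 8.82. Probe sets differ in how strongly they bind, and the deposited table gives no detection call, so levels of different genes are not set against each other here and a low level does not show that a transcript was present. In bulk RNA of this kind, more muscle cells and more RNA per muscle cell cannot be told apart.

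With 5'ss-VMO against control VMO, 2 of the 38 muscle genes tested passed the test, and both were higher. Asb5, an adaptor of ubiquitin ligases found in muscle, rose by 0.57 ± 0.084 (log2, SE, n = 2 arrays per group, 1.48-fold, adjusted p = 0.0254). Chrna1, the alpha subunit of the muscle acetylcholine receptor, rose by 0.62 ± 0.094 (1.53-fold, adjusted p = 0.0283). No member fell. Over all 14953 genes tested, 0.582% were called in this comparison, 0.502% higher and 0.0803% lower. All adjusted p values are from limma with Benjamini-Hochberg adjustment over those genes, two-sided, with a threshold of 0.05. An exact permutation of 2 against 2 arrays cannot go below p = 0.333. Both calls were lost without control replicate 1, without control replicate 2 or without 5'ss-VMO replicate 1, with adjusted p from 0.0913 to 0.162 for Asb5 and from 0.103 to 0.201 for Chrna1. They were also lost with no filter on low levels (adjusted p = 0.0869 and 0.0916) and when all 35556 probe sets were tested together (0.307 and 0.342).

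**Figure D1:**
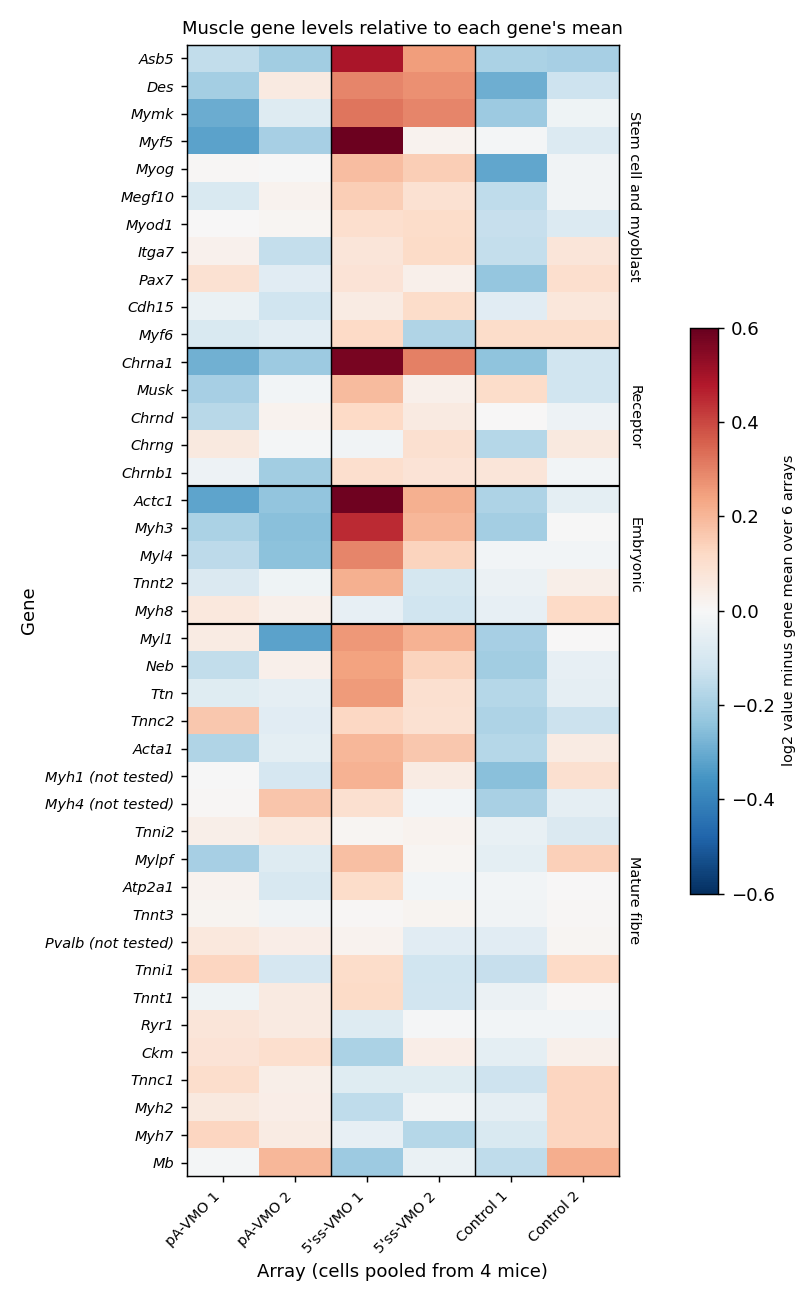
Colour shows the log2 value of each gene (rows, grouped by stage) on each array (columns) minus the mean of that gene over the 6 arrays, with red for above and blue for below. The red block in the 5'ss-VMO columns runs through Asb5, Des, Mymk, Chrna1, Actc1, Myh3 and Myl4 and is missing in Ckm, Mb and Myh7, and 3 genes marked as not tested lay below the filter.

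Asb5 read 6.70 and 6.64 on the pA-VMO arrays, 7.34 and 7.10 on the 5'ss-VMO arrays and 6.66 and 6.65 on the control arrays. Chrna1 read 6.49 and 6.56 in pA-VMO cells, 7.35 and 7.08 in 5'ss-VMO cells and 6.54 and 6.66 in control cells. For both genes the 5'ss-VMO arrays lay above the other 4, replicate 1 was the higher of the pair, and no pA-VMO array came near them. Asb5 lies on chromosome 8 from 54550331 to 54587842 and Chrna1 on chromosome 2 from 73563281 to 73580338 (GRCm38.p6).

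Myogenic factors act through the E-box, so the 250 bases before the start of transcription were read for the 32 members in a RefSeq promoter table (GRCm38.p6). Of its 32851 promoters, 66.2% hold at least 1 CANNTG and 13% hold the form CAGCTG, both of which read the same on either strand, and each CAGCTG is also a CANNTG. Among the members, 23 of 32 (71.9%) held CANNTG and 12 (37.5%) held CAGCTG. Each member has 1 promoter here, the one nearest its annotated start, while the shares of the table count every promoter in it. The sets are unlike in this, and no test compared them. The CAGCTG count was 7 of 17 for mature fibre genes, 3 of 4 for receptor genes, 1 of 5 for embryonic genes and 1 of 6 for satellite cell and myoblast genes. The promoters below belong to the 4 members with the largest difference between 5'ss-VMO and control VMO among those in the table, and to Ckm, a mature fibre gene whose groups overlapped, with CANNTG in capitals.
Chrna1, chr2:73580339-73580588, minus strand: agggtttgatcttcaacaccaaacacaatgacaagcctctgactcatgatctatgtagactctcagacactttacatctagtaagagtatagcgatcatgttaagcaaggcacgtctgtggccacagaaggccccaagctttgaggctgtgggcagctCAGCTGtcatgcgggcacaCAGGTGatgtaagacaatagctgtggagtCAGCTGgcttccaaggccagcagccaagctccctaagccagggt
Asb5, chr8:54550081-54550330, plus strand: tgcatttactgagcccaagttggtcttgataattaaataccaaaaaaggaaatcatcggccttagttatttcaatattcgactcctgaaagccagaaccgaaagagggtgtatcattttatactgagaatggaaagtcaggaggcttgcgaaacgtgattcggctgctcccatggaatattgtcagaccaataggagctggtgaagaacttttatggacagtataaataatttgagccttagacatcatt
Actc1, chr2:114052876-114053125, minus strand: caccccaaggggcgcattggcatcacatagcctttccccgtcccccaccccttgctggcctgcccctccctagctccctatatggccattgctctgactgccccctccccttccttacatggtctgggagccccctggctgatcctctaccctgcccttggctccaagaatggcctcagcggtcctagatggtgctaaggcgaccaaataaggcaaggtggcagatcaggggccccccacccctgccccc
Des, chr1:75360042-75360291, plus strand: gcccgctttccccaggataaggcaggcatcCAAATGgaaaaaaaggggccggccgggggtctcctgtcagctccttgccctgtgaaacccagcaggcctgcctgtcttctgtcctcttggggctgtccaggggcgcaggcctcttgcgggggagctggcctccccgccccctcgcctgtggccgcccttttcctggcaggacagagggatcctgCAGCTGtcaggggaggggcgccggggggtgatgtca
Ckm, chr7:19410844-19411093, plus strand: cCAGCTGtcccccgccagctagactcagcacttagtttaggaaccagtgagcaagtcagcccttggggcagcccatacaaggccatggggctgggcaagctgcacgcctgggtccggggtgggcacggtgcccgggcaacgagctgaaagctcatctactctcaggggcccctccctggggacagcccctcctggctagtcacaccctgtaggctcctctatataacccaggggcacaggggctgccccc
Chrna1 holds 3 such motifs, at positions -92, -73 and -44 from the start, of which 2 are CAGCTG, while the window of Asb5, the other gene that passed, holds 0. The window of Actc1 also holds 0, that of Des 2 and that of Ckm 1.

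The satellite cell and myoblast class held 11 genes, all tested. With 5'ss-VMO 1 of the 11 rose (Asb5), 10 had a positive difference from control, and in 7 both 5'ss-VMO arrays lay above both control arrays, an order seen in 23.2% of all genes tested. The median difference was 0.215, against 0.001 over all genes. With pA-VMO the median was 0.016 and 0 of the 11 were called. The median with 5'ss-VMO ran from 0.179 to 0.284 when 1 array of the comparison was left out.

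Pax7, the transcription factor that defines satellite cells, read 6.71 and 6.55 in pA-VMO cells, 6.70 and 6.65 in 5'ss-VMO cells and 6.39 and 6.72 in control cells. Its arrays overlapped between the groups, and the difference between 5'ss-VMO and control of 0.12 had a 95% interval from -0.12 to 0.36. The other satellite cell surface and adhesion genes were like it in size. Cdh15, which codes for M-cadherin, differed from control by 0.08 (interval -0.09 to 0.24) with 5'ss-VMO and Itga7, an integrin that binds laminin, by 0.13 (-0.08 to 0.33), and in both the groups overlapped. Megf10, a receptor of satellite cells, read 6.88 and 6.99 in pA-VMO cells, 7.12 and 7.06 in 5'ss-VMO cells and 6.82 and 6.95 in control cells. Its 5'ss-VMO arrays were above all others by a small margin (difference from control 0.21 ± 0.075, adjusted p = 0.277).

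The myogenic factors differed among themselves. Myod1, which commits cells to the muscle lineage, read 6.22 and 6.23 in pA-VMO cells, 6.32 and 6.33 in 5'ss-VMO cells and 6.08 and 6.14 in control cells. Myog, which drives myoblasts into differentiation, read 6.34 and 6.33 in pA-VMO cells, 6.52 and 6.48 in 5'ss-VMO cells and 6.02 and 6.31 in control cells. In both genes each pA-VMO array lay between the 5'ss-VMO and the control arrays, and neither passed the test for 5'ss-VMO against control (0.21 and 0.34, adjusted p = 0.207 and 0.176). Myf5, which acts beside Myod1, rested on a single array. It read 5.36 and 5.48 in pA-VMO cells, 6.27 and 5.70 in 5'ss-VMO cells and 5.67 and 5.60 in control cells. Its difference of 0.35 ± 0.151 from control (adjusted p = 0.347) was 0.063 when the first 5'ss-VMO array was left out and 0.636 when the second was, where it passed (adjusted p = 0.0477). Myf6, the factor of late differentiation and adult fibres, was the 1 member of the class with a negative difference from control, at -0.14 (interval -0.35 to 0.07).

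Mymk and Des stood higher and more evenly. Mymk, the membrane protein myomaker that fuses myoblasts, read 6.54 and 6.76 in pA-VMO cells, 7.16 and 7.13 in 5'ss-VMO cells and 6.62 and 6.81 in control cells. Des, the intermediate filament desmin, read 7.26 and 7.52 in pA-VMO cells, 7.76 and 7.74 in 5'ss-VMO cells and 7.17 and 7.34 in control cells. The 5'ss-VMO arrays of both genes lay close together and above all others, yet neither passed the test against control (Mymk 0.43 ± 0.091, adjusted p = 0.0948, and Des 0.49 ± 0.095, adjusted p = 0.0707). Des passed with the filter at the 40th percentile (adjusted p = 0.0418), with the 2 groups alone (0.0409) and with a trend in the prior (0.011), and Mymk passed with the trend (0.0292). Des is also expressed by pericytes and smooth muscle cells. Of 10 markers of those cells, 8 were higher than control after pA-VMO (median 0.211) and 9 after 5'ss-VMO (median 0.218). Limma called 0 of them after pA-VMO and 1, Mcam, after 5'ss-VMO (0.42, adjusted p = 0.0443), where 0% and 0.502% of all genes were called higher. For each reagent, 6 were higher at an unadjusted p under 0.05, where 6.22% (pA-VMO) and 7.72% (5'ss-VMO) of all genes were. The part of these markers in the value of Des was not tested. With pA-VMO, Des differed from control by 0.13 and its arrays overlapped the controls.

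**Figure D2:**
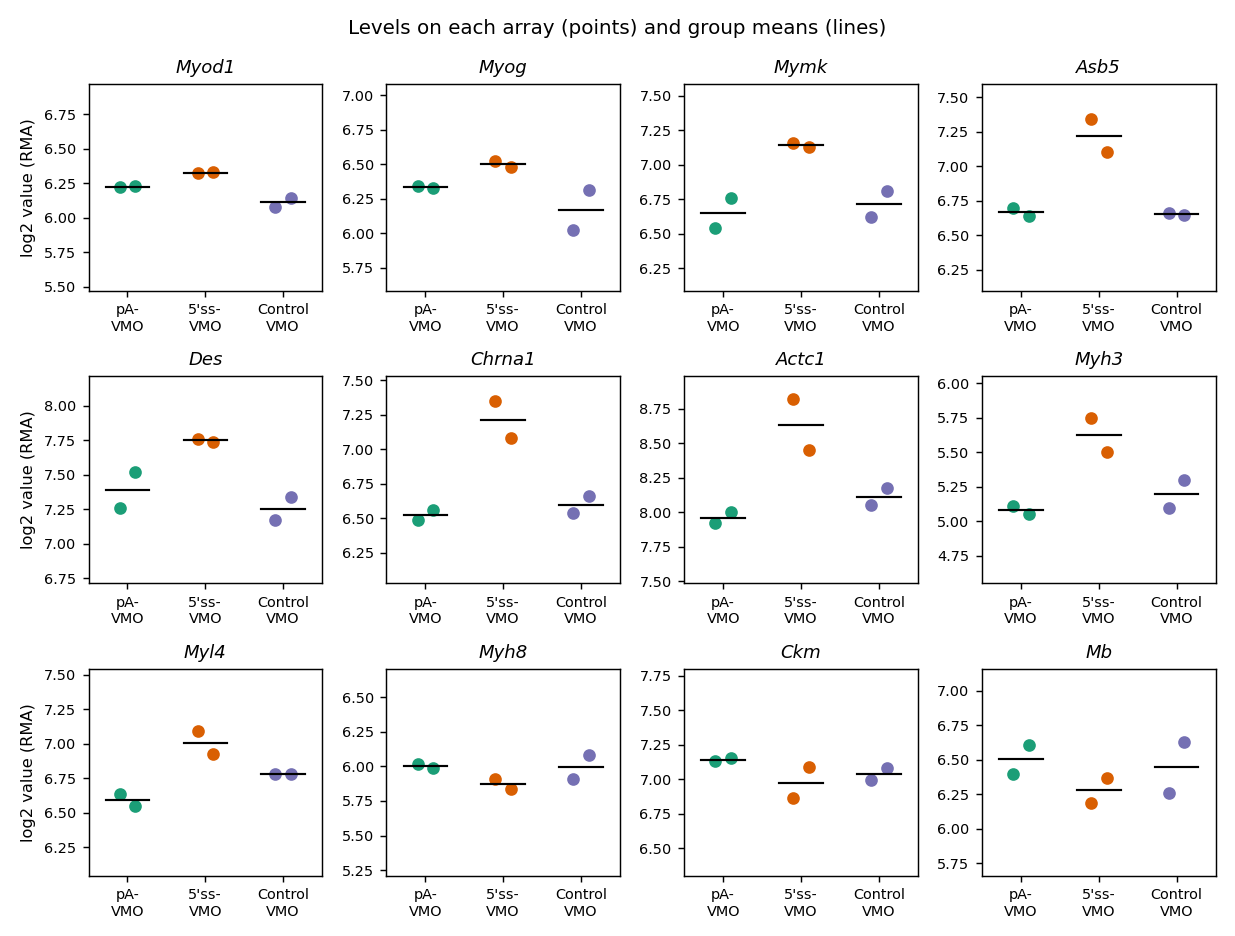
Log2 values on each array (points, coloured by group) with the mean of each group (lines) for 12 muscle genes, each panel spanning the same range of 1.5 log2 units around its gene's mean. The 5'ss-VMO points stand apart from the other 4 in Mymk, Asb5, Des, Chrna1, Actc1, Myh3 and Myl4, and overlap them or lie lower in Myh8, Ckm and Mb.

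Of the synaptic receptor genes, Chrna1 was the 1 that passed the test. The muscle acetylcholine receptor is built from the products of Chrna1, Chrnb1, Chrnd and either Chrng, before birth and in regenerating or denervated muscle, or Chrne in the adult, and Musk is the kinase that gathers it at the synapse. Chrnd read 5.24 and 5.43 in pA-VMO cells, 5.53 and 5.46 in 5'ss-VMO cells and 5.41 and 5.38 in control cells, a difference of 0.10 between 5'ss-VMO and control (interval -0.07 to 0.28). Chrng read 6.02 and 5.95 in pA-VMO cells, 5.94 and 6.06 in 5'ss-VMO cells and 5.79 and 6.02 in control cells, with overlapping groups and a difference of 0.09 (-0.10 to 0.29). For Chrnb1 the difference was 0.06 (-0.11 to 0.24). The upper bounds for these 3 partner subunits, 0.28, 0.29 and 0.24, lay below the lower bound for Chrna1, 0.40, and a difference between the genes was not tested. Chrna1 had the largest difference of the 38 genes tested, so this gap follows in part from singling it out. Chrnd, with a mean level of 5.41, lay near the filter at 5.209, and changes of dim probe sets are compressed. In Chrnb1 and Chrnd the 5'ss-VMO arrays were still the highest of the 6, by small margins. Musk read 7.41 and 7.59 in pA-VMO cells, 7.80 and 7.64 in 5'ss-VMO cells and 7.72 and 7.49 in control cells and overlapped between groups.

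Among the 5 genes of embryonic and regenerating fibres, Actc1, Myh3 and Myl4 were high on both 5'ss-VMO arrays and Tnnt2 and Myh8 were not. The median difference of the class from control was -0.115 after pA-VMO and 0.237 after 5'ss-VMO, and 0 of the 5 passed the test in either comparison. Both medians include Myh3, which passed the filter on low levels through its 5'ss-VMO arrays alone, and the median after pA-VMO is Myh3's own difference. Actc1, the cardiac actin that fetal and regenerating skeletal muscle also uses, read 7.92 and 8.00 in pA-VMO cells, 8.82 and 8.45 in 5'ss-VMO cells and 8.05 and 8.18 in control cells. The 5'ss-VMO arrays were higher than all others but lay well apart from each other, and the difference from control was 0.52 ± 0.11 (adjusted p = 0.094). Leaving out the first 5'ss-VMO array gave 0.339 and leaving out the second gave 0.701 for Actc1, which then passed (adjusted p = 0.0366). The actin genes are close to each other in sequence, so the share of each in a probe set's value is uncertain. Acta2, the smooth muscle actin, named here after its values were seen, differed from control by 0.33 after pA-VMO and 0.42 after 5'ss-VMO, where Actc1 had -0.16 and 0.52.

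Myh3, the embryonic myosin heavy chain that marks newly formed fibres, read 5.11 and 5.05 in pA-VMO cells, 5.75 and 5.50 in 5'ss-VMO cells and 5.10 and 5.30 in control cells. The filter on low levels stood at 5.209, and the means of the pA-VMO and control arrays were below it, so Myh3 was tested only because of its 5'ss-VMO arrays (difference from control 0.43 ± 0.098, adjusted p = 0.111). Myl4, the embryonic and atrial light chain, read 6.64 and 6.55 in pA-VMO cells, 7.09 and 6.93 in 5'ss-VMO cells and 6.78 on both control arrays. It was the gene of the class in which the pA-VMO arrays lay below the controls by the most (-0.18, interval -0.35 to -0.01, adjusted p = 0.404), with the 5'ss-VMO arrays above them (0.24, adjusted p = 0.233). Myh8, the perinatal myosin heavy chain, had a negative difference where Myh3 had a positive one, with 6.02 and 5.99 on the pA-VMO arrays, 5.91 and 5.84 on the 5'ss-VMO arrays and 5.91 and 6.08 on the control arrays. Both 5'ss-VMO arrays were at or below the lower control, and the difference of -0.12 had an interval from -0.29 to 0.05. Tnnt2, the cardiac troponin T also made in embryonic skeletal muscle, read 6.42 and 6.48 in pA-VMO cells, 6.72 and 6.40 in 5'ss-VMO cells and 6.47 and 6.54 in control cells, and only the first 5'ss-VMO array was high.

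The mature fibre class had 20 genes, of which 17 were tested and 0 were called in any comparison. Its median difference from control was 0.050 after pA-VMO and 0.022 after 5'ss-VMO. In 7 of the 17 both 5'ss-VMO arrays lay above both controls, as in 23.2% of all genes tested. In 4 (Acta1, Ttn, Neb and Myl1) they lay above all 4 other arrays, which 12.4% of all genes do. For the 11 satellite cell and myoblast genes that number was 7, with Pax7, Cdh15 and Itga7 not among them. For the 5 receptor genes it was 3. In the embryonic class it was Actc1 and Myl4, with Myh3 left aside because its 5'ss-VMO arrays carried it past the filter. The median of the mature class changed sign when control replicate 1 was left out (-0.005) and was 0.120 without 5'ss-VMO replicate 2.

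In 5 of the 17 tested genes of this class the interval of the difference between 5'ss-VMO and control lay above 0, and none of the 5 passed the test. Such an interval goes with an unadjusted p under 0.05 by limma, where 7.72% of all genes were higher. Ttn, the giant spring titin, read 5.76 and 5.78 in pA-VMO cells, 6.09 and 5.93 in 5'ss-VMO cells and 5.66 and 5.78 in control cells (0.29 ± 0.077 against control, adjusted p = 0.162). Neb, nebulin of the thin filament, read 5.64 and 5.82 in pA-VMO cells, 6.03 and 5.92 in 5'ss-VMO cells and 5.58 and 5.74 in control cells (0.31 ± 0.088, adjusted p = 0.186). Acta1, the actin of adult fibres, read 7.63 and 7.75 in pA-VMO cells, 8.01 and 7.97 in 5'ss-VMO cells and 7.64 and 7.86 in control cells (0.23, adjusted p = 0.283). In these 3 genes the 5'ss-VMO arrays were the 2 highest and the pA-VMO and control arrays overlapped. Myl1, the light chain of fast fibres that is also made early in fetal muscle, was at 0.33 (adjusted p = 0.273). Tnnc2, the calcium-binding troponin C of fast fibres, was high with both reagents, with 6.70 and 6.47 on the pA-VMO arrays, 6.66 and 6.63 on the 5'ss-VMO arrays and 6.35 and 6.41 on the control arrays. Its differences from control were 0.21 with pA-VMO (adjusted p = 0.398) and 0.26 with 5'ss-VMO (adjusted p = 0.233).

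The other 12 tested genes of the class had differences between -0.16 and 0.08, and the interval of each included 0. Ckm, the creatine kinase of muscle, read 7.13 and 7.15 in pA-VMO cells, 6.86 and 7.09 in 5'ss-VMO cells and 6.99 and 7.08 in control cells, and the interval of its difference between 5'ss-VMO and control ran from -0.25 to 0.14. Tnnt3, fast troponin T, varied from 7.04 to 7.08 over the 6 arrays, with both 5'ss-VMO arrays above the controls by a margin far under the standard error. Tnni2, fast troponin I, read 7.16 and 7.19 in pA-VMO cells, 7.14 and 7.15 in 5'ss-VMO cells and 7.08 and 7.04 in control cells, so that the arrays of both reagents lay above the controls, by 0.11 after pA-VMO (adjusted p = 0.531) and 0.08 after 5'ss-VMO (adjusted p = 0.595). For the oxygen carrier Mb, the slow myosin Myh7 and the fast myosin Myh2 the 5'ss-VMO difference from control was -0.16, -0.13 and -0.13, with intervals that included 0. The calcium channel Ryr1 and the calcium pump Atp2a1 were at -0.03 and 0.05, the slow troponins Tnnt1, Tnni1 and Tnnc1 at 0.01, 0.01 and -0.08, and the fast light chain Mylpf at 0.06. The highest upper bound among these 12 genes was 0.26, for Tnni1 and Mylpf, below the lower bounds of Asb5 and Chrna1 (0.38 and 0.40), and differences between genes were not tested. Asb5 and Chrna1 were singled out by their large differences, and the 12 genes are those left once mature genes with intervals above 0 were set apart. This gap follows in part from both choices. The upper bounds of the mature genes set apart ran from 0.43 (Acta1) to 0.60 (Myl1), above both of those lower bounds. Myh4, the fastest myosin, lay below the filter, at 5.05 and 5.21 in pA-VMO cells, 5.14 and 5.03 in 5'ss-VMO cells and 4.85 and 4.99 in control cells. Myh1, another fast myosin, and Pvalb, the calcium buffer of fast fibres, were below it too. The Myh genes of chromosome 11 are close copies that probes may share, so the value of each is uncertain.

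**Figure D3:**
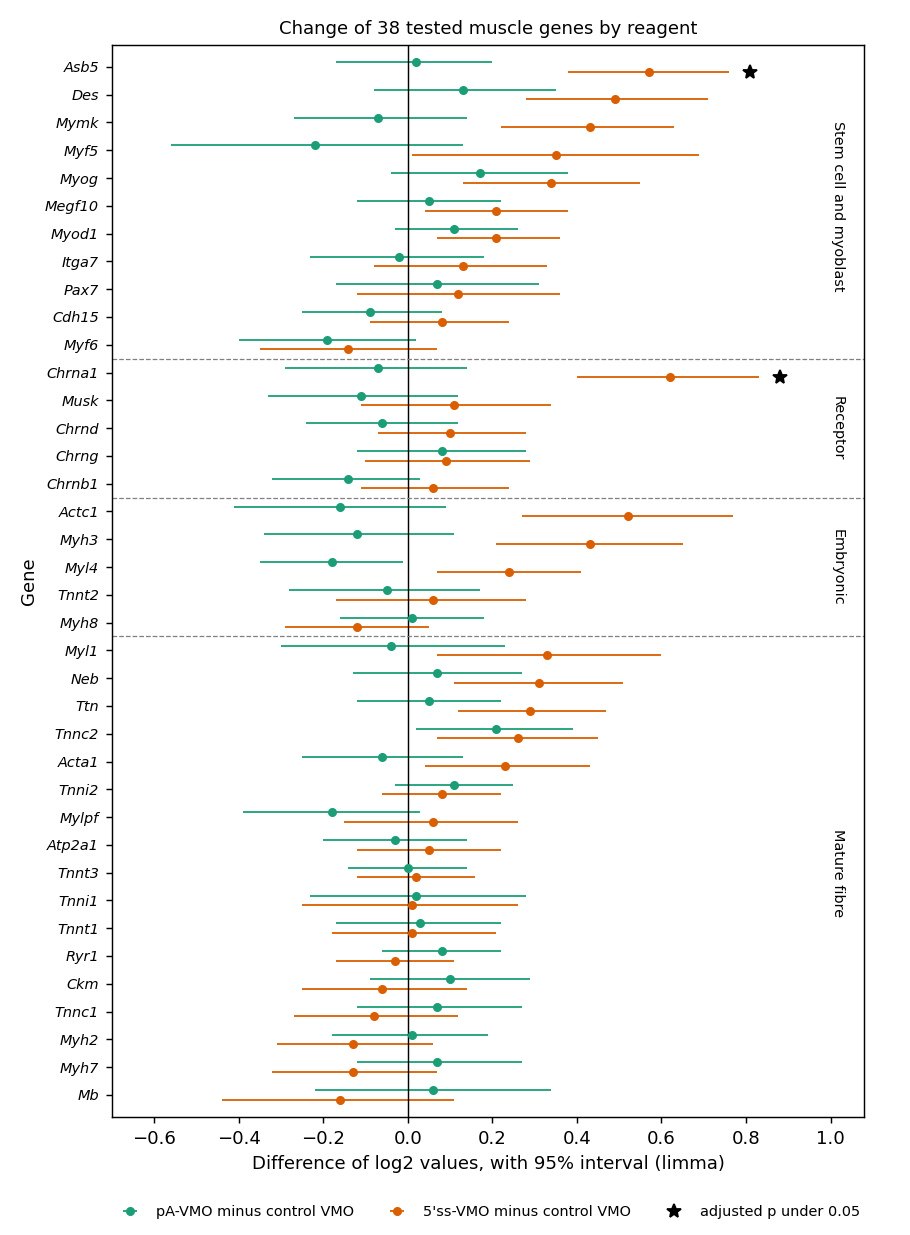
Points are differences of log2 values from control VMO for pA-VMO and 5'ss-VMO with 95% intervals from limma, for the 38 tested members grouped by stage, and stars mark the 2 adjusted p values under 0.05. Intervals for 5'ss-VMO clear 0 in most of the upper genes of the stem cell and myoblast class and of the embryonic class. Those for the lower 12 mature genes cross 0.

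With pA-VMO none of the 38 tested members was called against control by limma, and the one gene called among 14953 (0.00669%) was no member. At an unadjusted p under 0.05 there was 1 member higher (Tnnc2) and 1 lower (Myl4), where 6.22% and 5.23% of all genes were. The median difference over the 38 genes was 0.006, with a range from -0.22 to 0.21, and both pA-VMO arrays lay above both controls in 6 genes and below them in 6. Those orders are found in 24.1% and 18.8% of all genes. With 5'ss-VMO the median over the same genes was 0.107, with 30 positive and 8 negative differences. Both 5'ss-VMO arrays lay above both controls in 20 of the 38 (23.2% of all genes), and above all 4 other arrays in 17 (12.4% of all genes). Myh3, which passed the filter through its 5'ss-VMO arrays alone, is in each of these counts. Of the 38, 16 had an unadjusted p under 0.05 with a positive difference, where 7.72% of all genes did, and 0 had one with a negative difference, where 6.19% did. In 1 gene, Myh8, both 5'ss-VMO arrays lay below both controls, an order seen in 21.5% of all genes, and below all 4 other arrays, seen in 11.5%. Both comparisons use the same 2 control arrays.

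The direct comparison of the reagents does not involve the controls. In pA-VMO minus 5'ss-VMO, 28 of 38 differences were negative with a median of -0.154, and in 21 genes both pA-VMO arrays lay below both 5'ss-VMO arrays, which 23.7% of all genes do. In 8 they lay above, against 25.5% of all genes. All 11 satellite cell and myoblast genes and all 5 receptor genes had a negative difference, 4 of the 5 embryonic genes did, and 8 of the 17 mature ones. None of the 38 passed by limma, where 0.0602% of all genes were called, 0.0134% higher and 0.0468% lower. Chrna1 came nearest, at -0.69 ± 0.094 (adjusted p = 0.0513), followed by Asb5 at -0.55 (0.0626), Actc1 at -0.68 (0.0684), and Myl4 at -0.42, Myh3 at -0.54 and Mymk at -0.49 (each 0.0687). When the prior spread was allowed to follow the level of a gene, these 6 genes passed (adjusted p from 0.00391 to 0.0373). Myh3, which passed the filter on low levels through its 5'ss-VMO arrays alone, is among them. It is also in each count of negative or lower members given here. At an unadjusted p under 0.05 there were 14 lower members and 1 higher, against 7.11% and 8.81% of all genes. The higher one was the slow myosin Myh7 at 0.20 (adjusted p = 0.30).

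A wider list of muscle genes was read beside the members. Of 70 further muscle genes listed, 65 were on the array and 56 were tested, with 0 called in any comparison by limma. For 5'ss-VMO against control, 3 of the 56 were higher and 4 lower at an unadjusted p under 0.05, where 7.72% and 6.19% of all genes were. Their median difference between 5'ss-VMO and control was -0.006, with 24 positive and 32 negative. The 10 further myogenic genes had a median of 0.010, with 5 positive and 5 negative differences. Levels in that list reached 10.97, and which cells gave them was not tested. The median was 0.055 for 5 metabolic genes, -0.015 for 11 genes of excitation and contraction coupling, -0.037 for 24 further sarcomere genes and -0.099 for 6 synapse genes. Those with the smallest p were Ankrd1, a stress-induced titin-binding protein, at 0.34 (adjusted p = 0.161), Six4, a homeobox factor upstream of the myogenic factors, at 0.25 (adjusted p = 0.188), Dok7, the activator of Musk, at -0.21 (adjusted p = 0.231), and Eno3, the muscle enolase, at 0.21 (adjusted p = 0.237). In pA-VMO minus 5'ss-VMO, Six4 was at -0.38 (adjusted p = 0.0706).

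**Figure D4:**
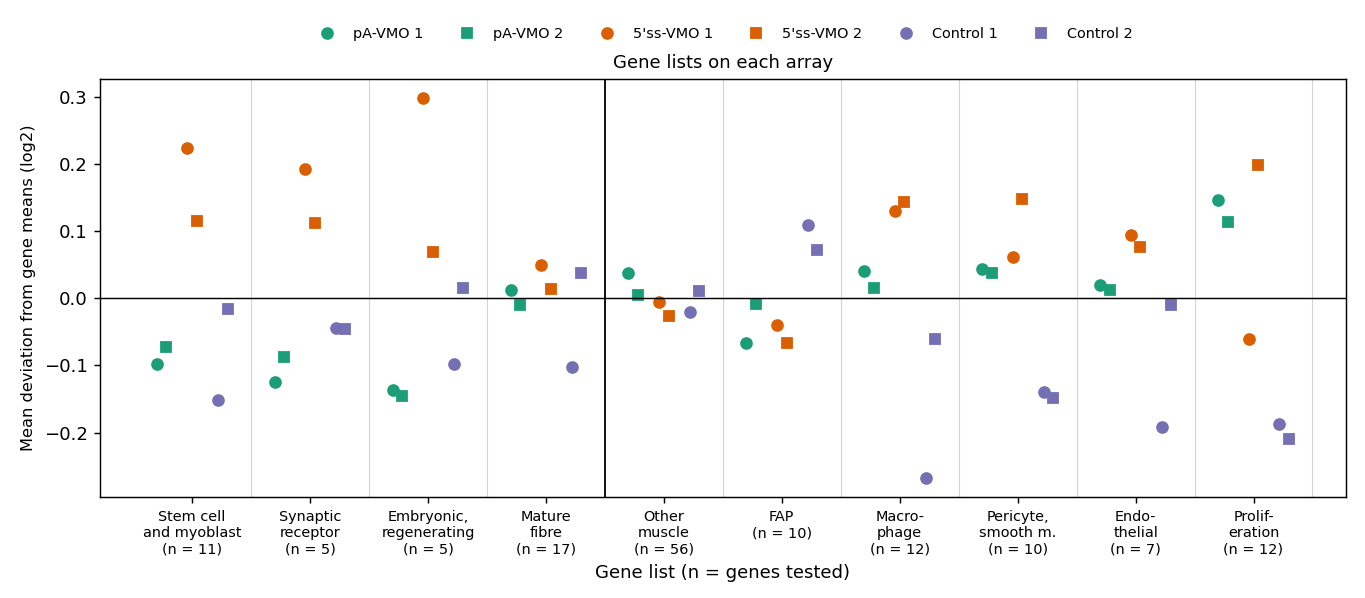
Each point is the mean over the genes of a list on 1 array, after subtracting each gene's own mean over the 6 arrays, with circles for replicate 1 and squares for replicate 2. The 5'ss-VMO points are the highest in the stem cell and myoblast list (0.223 and 0.115), the receptor list (0.192 and 0.112) and the embryonic list (0.298 and 0.068). They overlap the others in the mature and the other muscle lists. The embryonic list includes Myh3, which passed the filter on low levels through its 5'ss-VMO arrays alone. The macrophage, pericyte and endothelial lists have their lowest points in the control arrays.

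The 5'ss-VMO arrays were not alike in these lists. The mean deviation of the embryonic genes was 0.298 on replicate 1 and 0.068 on replicate 2. That of the satellite cell and myoblast genes was 0.223 and 0.115 and that of the receptor genes 0.192 and 0.112, so replicate 1 was higher in all 3. The embryonic means include Myh3, which passed the filter on low levels through its 5'ss-VMO arrays alone. The proliferation list of 12 genes ran in the opposite order on these arrays, with -0.061 on replicate 1 and 0.198 on replicate 2. The control arrays differed as well. Control replicate 1 was lower than replicate 2 by a median of 0.128 over the 38 members. Mean deviations were -0.151 and -0.016 for the satellite cell and myoblast genes and -0.102 and 0.037 for the mature genes. On the pA-VMO arrays the median difference between replicates was 0.000.

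Markers of other cells also differed between these arrays. Of 12 macrophage markers, 11 were higher than control in the pA-VMO group (median 0.175, 0 called by limma, 4 at an unadjusted p under 0.05). In the 5'ss-VMO group all 12 were (median 0.279, 2 called, 6 at an unadjusted p under 0.05). Of all genes, 6.22% (pA-VMO) and 7.72% (5'ss-VMO) were higher at that unadjusted p, and 0% and 0.502% were called higher. The mean level of the macrophage markers was 6.82 and 6.80 on the pA-VMO arrays, 6.91 and 6.93 on the 5'ss-VMO arrays and 6.51 and 6.72 on the control arrays. All 12 proliferation genes were higher than control after either reagent, with medians of 0.320 (pA-VMO) and 0.262 (5'ss-VMO). Of these, 10 (pA-VMO) and 7 (5'ss-VMO) had an unadjusted p under 0.05, where 6.22% and 7.72% of all genes were higher, and 0 were called. FAP markers were lower than control in 8 of 10 cases after pA-VMO (median -0.093) and in 9 of 10 after 5'ss-VMO (median -0.083). After 5'ss-VMO 1 of them was called lower, where 0.0803% of all genes were. The unadjusted p was under 0.05 for 3 (pA-VMO) and 4 (5'ss-VMO) of the lower FAP markers, against 5.23% and 6.19% of all genes. Of 7 endothelial markers tested, 5 were higher after pA-VMO (median 0.154) and 4 after 5'ss-VMO (median 0.235, 1 called). For each reagent, 2 of the 7 were higher and 1 lower at an unadjusted p under 0.05. Of all genes, 6.22% were higher and 5.23% lower at that p after pA-VMO, and 7.72% and 6.19% after 5'ss-VMO. Of single markers, named after their values were seen, the endothelial cadherin Cdh5 was at 0.29 after pA-VMO and rose by 0.70 after 5'ss-VMO (adjusted p = 0.00551). Tek, Vwf and Tie1 of the same list were at -0.19, -0.16 and -0.03 after 5'ss-VMO. The complement genes C1qa and C1qc of macrophages were at 0.03 and 0.17 after pA-VMO and rose by 0.39 and 0.50 after 5'ss-VMO (adjusted p = 0.0472 and 0.0249). In pA-VMO minus 5'ss-VMO, C1qa was at -0.36 and Cdh5 at -0.41 (adjusted p = 0.0687 for each). In that comparison 7 macrophage markers were negative and 5 positive, and 5 endothelial markers were negative and 2 positive. Vwf had the largest positive difference of the endothelial list, 0.32 (adjusted p = 0.123). The part of other cell types in the values of the muscle genes was not tested.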

How the data were processed

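RNA was measured on 6 Affymetrix Mouse Gene 1.0 ST arrays, 2 for each of 3 groups, each from FAPs of 4 mice per the labels. The deposited table holds log2 values, made by the authors with RMA and Affymetrix Expression Console per the submitters' processing notes, which name no version or setting. RMA corrects background and makes arrays alike in distribution, so changes in total RNA cannot be seen and changes of dim probe sets are compressed. Values ran from 1.38 to 13.50. The number of arrays limits the precision.

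Of 35556 probe sets, 21789 have 1 symbol in the platform annotation, 1621 several and 12146 none. The highest-mean probe set of each gene was kept (19938 genes, and 1 probe set for each of the 41 members). A filter at the 25th percentile of gene means (5.209) left 14953 genes and 38 members. Groups were compared with limma 3.58.1 in R 4.3.3 (eBayes without trend) on all 6 arrays (3 residual degrees of freedom, 6.06 from the prior). The procedure was tested on simulated data. Alternatives changed the filter, the spread model, the samples fitted, a replicate block, centring, the probe set rule and each array in turn.

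The members and gene lists were chosen with earlier results of these data known, so counts over them are descriptions. Values on each array are given for members that passed, for the 3 of each class with the highest level or the smallest p in the contrast of 5'ss-VMO with control VMO, and for genes defining a stage. Nothing says whether pools of a group came from separate experiments, so p values measure the spread between these arrays.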

Additional observations from a re-analysis of the deposited data

How the results depend on the processing

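With 5'ss-VMO against control, 87 genes and 2 muscle genes were called. The counts were 24 and 0 without a filter, 139 and 3 (Des, Asb5 and Chrna1) with a filter at the 40th percentile, 266 and 5 with a trend in the prior, 265 and 5 with trend and robust estimation, and 0 and 0 over all probe sets (limma). Against control, pA-VMO gave 1 gene and 0 muscle genes, and the gene count was 0 without a filter, 51 with a trend, 49 with trend and robust estimation and 0 over all probe sets. For pA-VMO against 5'ss-VMO, 9 genes and 0 muscle genes were called, against 3 genes without a filter, 100 and 5 with the higher filter, 197 and 6 with a trend, 186 and 6 with trend and robust estimation, 15 and 1 with the mean of all probe sets of a gene, and 0 over all probe sets. Myh3, kept by the filter through its 5'ss-VMO arrays alone, is in both counts of 6. Leaving out 1 array gave 8 to 76 genes and 0 to 4 muscle genes for 5'ss-VMO against control, 0 to 2 genes for pA-VMO against control, and 1 to 18 genes and 0 to 4 muscle genes between the reagents. The median change of the muscle genes ran from 0.093 to 0.182, from -0.064 to 0.070 and from -0.186 to -0.120 in these fits. The cause of these shifts was not tested.

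Replicates of one number share only the number: between groups, the same-number correlations of the replicate difference were -0.102 (control and pA-VMO), 0.021 (control and 5'ss-VMO) and -0.035 (pA-VMO and 5'ss-VMO) over all genes, and -0.113, 0.314 and -0.106 over the muscle genes. With the replicate number as a block, 90 genes and 3 muscle genes (Des, at adjusted p = 0.0434, Asb5 and Chrna1) were called for 5'ss-VMO against control, 1 gene and 0 muscle genes for pA-VMO against control, and 23 genes and 2 muscle genes, Asb5 and Chrna1, between the reagents. Asb5 and Chrna1, which passed for 5'ss-VMO against control, kept their sign in every fit of that comparison.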
